A study of Mus musculus with 16 samples.

Results

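The genes described here carry the symbols of mitochondrial ribosomal proteins, and all but Mrps36, discussed below, are counted as encoding proteins of that ribosome. Members were taken by symbol alone: every protein-coding gene of the deposited table whose mouse symbol begins with Mrpl or Mrps followed by a digit, without the pseudogene symbols that contain -ps. The rule found 77 genes of the 33289 in the table, 48 with the prefix Mrpl for the large subunit and 29 with the prefix Mrps for the small subunit. All 77 passed the filter on low values, which 17349 genes of the table passed. The rule reads symbols only and uses no measured value.

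RNA was sequenced from 16 hemi-brains of C57BL/6J mice aged 3 to 4 months, perfused with buffered saline and taken 8 hours after an injection. There were 4 groups of 4 libraries: wild-type mice given saline, wild-type mice given lipopolysaccharide (LPS, bacterial endotoxin, which provokes systemic inflammation), mice labelled Lcn2-/- given saline, and mice labelled Lcn2-/- given LPS. The product of Lcn2, lipocalin-2, is secreted during inflammation and sequesters the iron carriers of bacteria. The sources used here state neither the part of the gene removed by the allele nor the dose and route of injection. Since no label ties a library to an animal of its own, the p-values reflect how these libraries vary and nothing more.

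Mitochondria keep a ribosome of their own, descended from that of bacteria, which translates only the few proteins encoded by mitochondrial DNA, all of them subunits of the respiratory chain and the ATP synthase. Its ribosomal RNAs are transcribed inside the organelle, while every protein of it is encoded in the nucleus, made in the cytosol and imported. Many of these proteins have a bacterial counterpart, and the others were added in the line leading to animals. Neurons depend heavily on oxidative phosphorylation, and inherited defects of mitochondrial ribosomal proteins commonly affect the brain.

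Values are log2 RPKM (reads scaled to transcript length and library size) after conditional quantile normalization by the authors, printed here as RPKM. Lcn2 itself lay between 0.0650 and 0.204 RPKM in the wild-type saline libraries, 0.132 and 0.351 in those labelled Lcn2-/- and given saline, 66.7 and 82.7 after LPS in wild type, and 34.1 and 40.2 after LPS with the Lcn2-/- label. Lcn2 RNA was thus present after LPS in both genotypes, so the genotype is called a label throughout. Replicate 4 of the Lcn2-/- saline group stood apart: 17112 genes reached 0.5 RPKM in it against 16372 to 16497 in the others, and the members lay a median of 0.17 (log2) from their group mean against at most 0.080 in any other library. For comparisons that rest on it, the total of members called is given with and without it. All other counts, such as those by role, motif, transcript length or shared start, include it, as do single-gene estimates, unless stated. Of 10 markers each, astrocyte markers were higher after LPS for 5 in both genotypes (summed level 646 to 669.9 RPKM in wild-type saline and 736.9 to 790.6 in wild-type LPS, 621 to 658 and 748 to 778 with the Lcn2-/- label). Oligodendrocyte markers were lower for 5 in both genotypes and higher for 1 with the Lcn2-/- label. Microglial markers were lower for 7 in wild type and 8 with the Lcn2-/- label and higher for 2 in both (C1qa and C1qb), and their summed level was 137 to 148 RPKM in wild-type saline, 137 to 150.1 in wild-type LPS, 139 to 141 in Lcn2-/- saline and 148 to 159 in Lcn2-/- LPS libraries. The microglial marker Gpr34 was under 0.5 RPKM in every LPS library of both genotypes. Endothelial markers were lower for 5 and 6 and higher for 2 and 1, with Tek under 0.5 RPKM in every Lcn2-/- LPS library. Of 10 neuronal markers, none passed in wild type by limma and 2 passed in each direction with the Lcn2-/- label, with summed levels between 1052 and 1113 RPKM in all 4 groups. Of 8 pericyte markers 5 fell and 1 rose in wild type and 6 fell with the Lcn2-/- label, of 7 choroid plexus markers 2 and 3 fell, and of 6 neutrophil markers tested 3 rose and 1 fell in both, with Ly6g, Mpo and Elane under 0.5 RPKM in every library. Of 4 erythrocyte markers tested, 1 fell in wild type (Hba-a1). Between the genotypes after LPS, 4 of 10 endothelial markers were lower and 1 higher, and 2 of 10 microglial markers lower and 1 higher. Of 10 markers each, 1 neuronal (Stmn2) and 1 oligodendrocyte marker (Opalin) were higher and 1 astrocyte marker (Fgfr3) lower. Hba-a1 was higher by 0.97 (log2) with all 4 erythrocyte estimates above 0. The part of these shifts in the results below was not tested, and in bulk tissue fewer cells of a type and less RNA per cell cannot be told apart.

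The members were expressed above the typical level of the genes tested. Their mean level over the 16 libraries ran from 2.58 RPKM for Mrps35 to 46.1 RPKM for Mrpl42, with a median of 13.4 RPKM against 4.37 RPKM over all genes tested. The lowest 3 were Mrps35, a small-subunit protein without a bacterial counterpart, Mrpl23 (2.73 RPKM) and Mrpl13 (3.08 RPKM), both large-subunit proteins that bacteria share. The highest 3 were Mrpl42, Mrpl41 (36.4 RPKM) and Mrpl52 (34.9 RPKM), all large-subunit proteins particular to mitochondria. Symbols do not always match the particle: Mrps18a and Mrps30 carry small-subunit names but sit in the large subunit, and are counted there below. Of the 5 pseudogene symbols left out, Mrpl48-ps had a median of 4.37 RPKM and Mrpl23-ps1 of 2.46 RPKM, so reads of Mrpl48 and Mrpl23 may be shared with a near copy. Mrpl33 and the RNAs encoded in mitochondrial DNA were not analysed here.

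The start regions of the members held motifs of factors known to drive nuclear genes for mitochondrial proteins. RefSeq windows (GRCm38.p6, 250 bases before to 50 after the start) were matched for 68 of the 77 members. They were searched on both strands for 4 motifs that do not contain one another: GCGCATGC of NRF1, CCGGAAGT of the ETS family (which includes GABP), AAGATGGCG of YY1 and the palindrome CACGTG, the E-box read by Myc among others. The NRF1 motif stood in 7 members (10.3%) against 5.71% of the 10882 tested protein-coding genes with a window and 3.05% of all 27025 genes in the table of windows. The ETS motif stood in 11 members (16.2%, against 8.14% and 4.31%) and the YY1 motif in 8 (11.8%, against 3.25% and 1.64%). The E-box stood in 5 (7.35%, against 11.4% and 8.09%), a share below that of the tested genes. At least 1 of the 4 motifs was in 27 of the 68 (39.7%, against 25.3% and 15.5%). A match is a run of letters, and binding was not measured here.

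The 8 YY1 matches are shown because 6 of them lie in the same orientation, 11 to 36 bases after the start. Each of these encloses an ATG because the motif itself contains one. The matches in Mrpl36 and Mrps11 are reversed and lie 31 and 108 bases before the start. Capitals mark the motif in the orientation of the gene, and each stretch is read 5′ to 3′ on the gene's strand.
Mrpl35 (chr6:71823745-71823769, minus strand): caggctgcAAGATGGCGgcttccat
Mrpl36 (chr13:73330970-73330994, plus strand): tgaccttaCGCCATCTTtcttcctg
Mrpl37 (chr4:107066824-107066848, minus strand): cacgggcaAAGATGGCGgcgtccag
Mrpl42 (chr10:95501906-95501930, minus strand): attgaagcAAGATGGCGagcgcgcg
Mrps11 (chr7:78783015-78783039, plus strand): acgggcgcCGCCATCTTtctgtctt
Mrps18a (chr17:46111007-46111031, plus strand): tgcgttccAAGATGGCGgccctcag
Mrps24 (chr11:5707652-5707673, minus strand): gccggcccAAGATGGCGtggtc
Mrps27 (chr13:99344792-99344816, plus strand): tgcgctccAAGATGGCGgctcccat

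The NRF1 matches lay before the start in every member that held one, and Mrps18b had a further one after it. Of the 19 members with a window that rose after LPS with the Lcn2-/- label, 3 carried the motif, Mrpl9, Mrpl17 and Mrpl39, and these are shown with capitals on it.
Mrpl17 (chr7:105811083-105811106, minus strand): gagttactGCGCATGCgtcctctg
Mrpl39 (chr16:84735354-84735377, minus strand): ggagaggcGCGCATGCgcccccgc
Mrpl9 (chr3:94443300-94443323, plus strand): gcgcagctGCGCATGCgcggggtc

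Members also shared their start regions with other genes. In 18 of 77 members (23.4%) another protein-coding gene started within 1000 bp on the opposite strand and ran the other way, against 9.17% of the 14011 protein-coding genes tested. Mrps12, which shapes the decoding site of the small subunit, starts 172 bp from Sars2, the mitochondrial seryl-tRNA synthetase, and Mrpl30 starts 66 bp from Mitd1. The stretches between these starts are shown because their genes are compared below, and neither holds any of the 4 motifs. Mrpl46 and Mrps11, members of different subunits, overlap head to head by 412 bp, so that without a stated counting strand their reads cannot be told apart in that overlap.
Mrps12 (chr7:28741822-28741991, minus strand): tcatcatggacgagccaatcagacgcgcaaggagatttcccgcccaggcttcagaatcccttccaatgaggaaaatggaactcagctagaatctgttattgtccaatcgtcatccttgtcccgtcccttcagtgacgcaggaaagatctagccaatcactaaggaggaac
Mrpl30 (chr1:37890412-37890476, plus strand): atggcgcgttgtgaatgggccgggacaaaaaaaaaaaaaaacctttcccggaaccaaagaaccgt

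In wild-type brain, LPS was followed by small decreases in a few members. Gene positions are those of GENCODE vM21 on GRCm38, the assembly also called mm10. By limma with Benjamini-Hochberg adjustment over all 17349 genes, 8 members were lower (13.9% of all genes tested were) and 1 was higher (11.4% of all genes tested). Their shares, 10.4% and 1.299%, were thus no higher than those of all genes. The median difference over the 77 members was -0.046 (log2), against -0.025 over all genes tested, and 68 did not pass. That median was -1.4e-05 with GC and length trends removed and -0.018 without wild-type saline replicate 3.

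Mrps21 (chr3:95862634-95871519, minus strand), a small-subunit protein with a bacterial counterpart, stood at 18.3, 18.3, 19.3 and 19.02 RPKM in the wild-type saline libraries and at 15.2, 15.5, 16.8 and 15.3 after LPS. The groups did not overlap, and the level fell by 0.25 ± 0.055 (SE) on the log2 scale (adjusted p = 0.00254, limma). Mrpl35, a large-subunit protein that bacteria share, went from 6.82, 6.5004, 6.46 and 6.31 RPKM to 5.43, 5.49, 6.17 and 5.09, also without overlap (-0.24 ± 0.063, adjusted p = 0.0105). Mrpl12 (chr11:120484613-120489065, plus strand), the stalk protein that contacts the translation factors, went from 26.1, 26.3, 28.7 and 27.3 RPKM to 24.003, 22.8, 24.04 and 23.4. Every wild-type LPS library lay below every wild-type saline library (-0.20 ± 0.051, adjusted p = 0.00782). Mrpl14, at the interface of the subunits, Mrpl28 and Mrpl36 fell by 0.19, 0.19 and 0.18, and Mrpl4 and Mrpl20 made up the 8. For Mrpl14 the libraries overlapped (15.4, 15.8, 17.6 and 17.7 RPKM against 15.5, 15.1, 14.04 and 13.6; adjusted p = 0.0488).

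Mrpl41 (chr2:24974117-24975098, minus strand), a large-subunit protein particular to mitochondria, was the only member that rose in wild type. It stood at 33.7, 34.6, 35.9 and 35.9 RPKM after saline and 38.4, 39.5, 37.04 and 38.1 after LPS. All 4 LPS libraries lay above all 4 saline libraries, by 0.13 ± 0.030 (adjusted p = 0.00546). The number of members called lower ran from 4 to 15 when 1 library was left out. It was 4 without wild-type saline 2, wild-type saline 3 or wild-type LPS 2 (11.7%, 11.1% and 11.4% of all genes tested). It was 5 without wild-type saline 4, Lcn2-/- saline 1, wild-type LPS 4 or Lcn2-/- LPS 4 (11.3%, 13.4%, 11.1% and 13.6%). Without wild-type saline 1 it was 13 (13%), and without Lcn2-/- saline 4 it was 15 (19.8%). With trends of GC content and transcript length removed, 3 members were lower and 5 higher (11.6% and 14.2% of genes tested), and Mrps21, Mrpl35 and Mrpl12 were the 3.

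With the Lcn2-/- label, more members rose than fell after LPS. By limma, 24 members were higher (20.7% of all genes tested were), 10 were lower (27.7% of all genes tested) and 43 did not pass. The shares among the members were 31.2% and 13.0%. Their median difference was 0.050 (log2), against -0.028 over all genes tested, and it was 0.088 with GC and length trends removed. In 19 of the 24 that rose, and in 9 of the 10 that fell, the saline and LPS libraries did not overlap, nor did they in 1 of the 43 others. Members that passed did so on these same values, so the lack of overlap adds no separate support. Its share over all genes tested is not given.

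**Figure D1:**
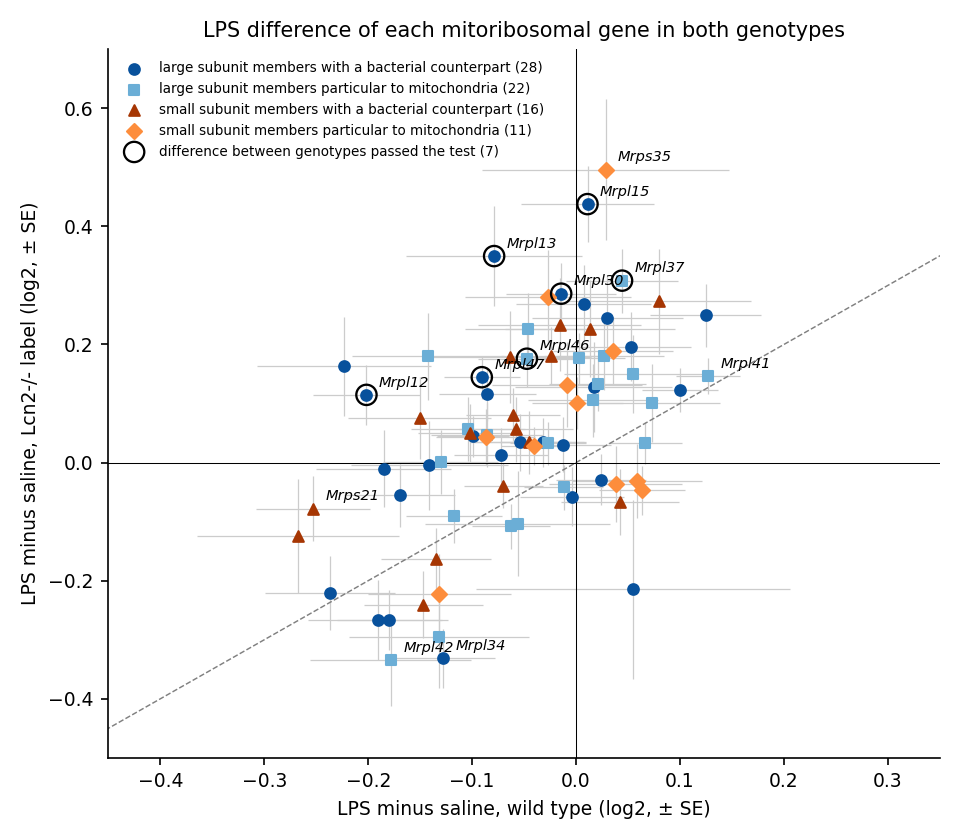
Difference between LPS and saline (log2, ± SE) of each of the 77 members in wild type (horizontal axis) and with the Lcn2-/- label (vertical axis), coloured by role, with equal differences on the dashed line and circles around the 7 members whose differences passed the test against each other. Points lie mostly above the dashed line, with Mrps35 (0.50) and Mrpl15 (0.44) highest and Mrpl34 and Mrpl42 (both -0.33) lowest on the vertical axis.

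The largest estimate with all libraries included was that of Mrps35 (chr6:147042764-147073991, plus strand), the least abundant member. Its libraries held 2.41, 2.49, 2.72 and 1.59 RPKM after saline and 3.08, 3.18, 3.34 and 3.13 after LPS, a rise of 0.50 ± 0.12 (adjusted p = 0.00301, limma). Replicate 4 was the lowest of the saline libraries, and the other three also lay below every LPS library. Mrpl15 (chr1:4773206-4785739, minus strand), a core large-subunit protein, went from 3.93, 3.84, 3.96 and 3.30 RPKM to 5.10, 4.98, 5.003 and 5.22 (0.44 ± 0.064, adjusted p = 4.82e-05). Mrpl13 (chr15:55534094-55557748, minus strand) went from 2.90, 3.00, 2.72 and 2.43 RPKM to 3.39, 3.72, 3.57 and 3.38 (0.35 ± 0.085, adjusted p = 0.00323). In both, each LPS library lay above each saline library. Over the 26 alternative settings the estimate ran from 0.33 to 0.59 for Mrps35 and from 0.38 to 0.46 for Mrpl15, and these ranges overlapped.

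Mrpl37 (chr4:107055874-107066868, minus strand), a large-subunit protein particular to mitochondria, held 7.83, 8.67, 8.43 and 6.99 RPKM after saline and 9.89, 9.99, 10.02 and 9.50 after LPS (0.31 ± 0.054, adjusted p = 0.000253). Mrpl30 (chr1:37890477-37898535, plus strand) held 11.8, 12.2, 11.6 and 10.2 RPKM and then 13.1, 14.3, 14.6 and 13.8 (0.29 ± 0.053, adjusted p = 0.000389). Neither pair of groups overlapped. Mrpl41 rose here too, from 34.8, 33.7, 34.2 and 35.2 RPKM to 37.7, 39.6, 37.7 and 37.7 (0.15 ± 0.030, adjusted p = 0.00104, limma). With all libraries and no trend removed it was the only member called higher in both genotypes. With GC and length trends removed, Mrpl2, Mrpl9, Mrpl38 and Mrps34 were also called higher in both, as was Mrpl9 without Lcn2-/- saline replicate 4. The share of all genes tested that was called in both genotypes is not given. The remaining members called higher ran from 0.12 to 0.28 on the log2 scale.

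The members that fell with the Lcn2-/- label included the most abundant one. Mrpl42 (chr10:95480805-95501940, minus strand) held 49.05, 47.3, 48.7 and 61.4 RPKM after saline and 39.9, 42.9, 40.5 and 39.5 after LPS, a difference of -0.33 ± 0.078 (adjusted p = 0.00235). Saline replicate 4 was the highest, and the other three saline libraries also lay above every LPS library. Mrpl34 (chr8:71464959-71465747, plus strand), a short protein that bacteria share, went from 27.1, 29.1, 31.5 and 29.7 RPKM to 24.6, 23.8, 22.6 and 22.2 (-0.33 ± 0.050, adjusted p = 6.44e-05). Mrpl53, particular to mitochondria, went from 20.9, 20.8, 20.9 and 28.4 RPKM to 18.3, 19.95, 17.8 and 17.5 (-0.30 ± 0.087, adjusted p = 0.0108). Groups stayed apart for both, although for Mrpl53 the saline replicate 4 lay far above the other three. The estimate of Mrpl53 ran from -0.34 to -0.13 over the 26 alternative settings.

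Mrpl36 went from 20.2, 20.3, 20.5 and 20.7 RPKM to 18.4, 17.2, 15.8 and 16.6 (-0.27 ± 0.050, adjusted p = 0.000476). Mrpl14 went from 16.2, 16.6, 17.2 and 18.8 RPKM to 15.4, 12.9, 13.7 and 15.2 (-0.27 ± 0.067, adjusted p = 0.00421). Both are large-subunit proteins with a bacterial counterpart, and neither pair of groups overlapped. Together with Mrpl35 (-0.22 ± 0.063) they were the 3 members called lower after LPS in both genotypes with all libraries included. Without Lcn2-/- saline replicate 4, Mrpl28, Mrpl42 and Mrps2 were also called lower in both. The comparisons in wild type and with the Lcn2-/- label share no library. They do share the estimate of the spread, which came from all 16 libraries. In wild type Mrpl14 passed in 12 of the 26 alternative settings, Mrpl36 in 23 and Mrpl35 in all 26. With GC and length trends removed, Mrpl14 and Mrpl36 did not pass in wild type. Mrps2, Mrps36, Mrps12 and Mrpl43 completed the 10. After removal of trends with GC content and transcript length, 30 members were higher and 7 lower (25.7% and 23.5% of genes tested), and Mrpl14, Mrps12 and Mrps36 no longer passed. Without Lcn2-/- saline replicate 4, 23 members were higher and 10 lower (20.7% and 28.1% of all genes tested), and within the 8 libraries of this label alone 14 were higher (16.2%).

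**Figure D2:**
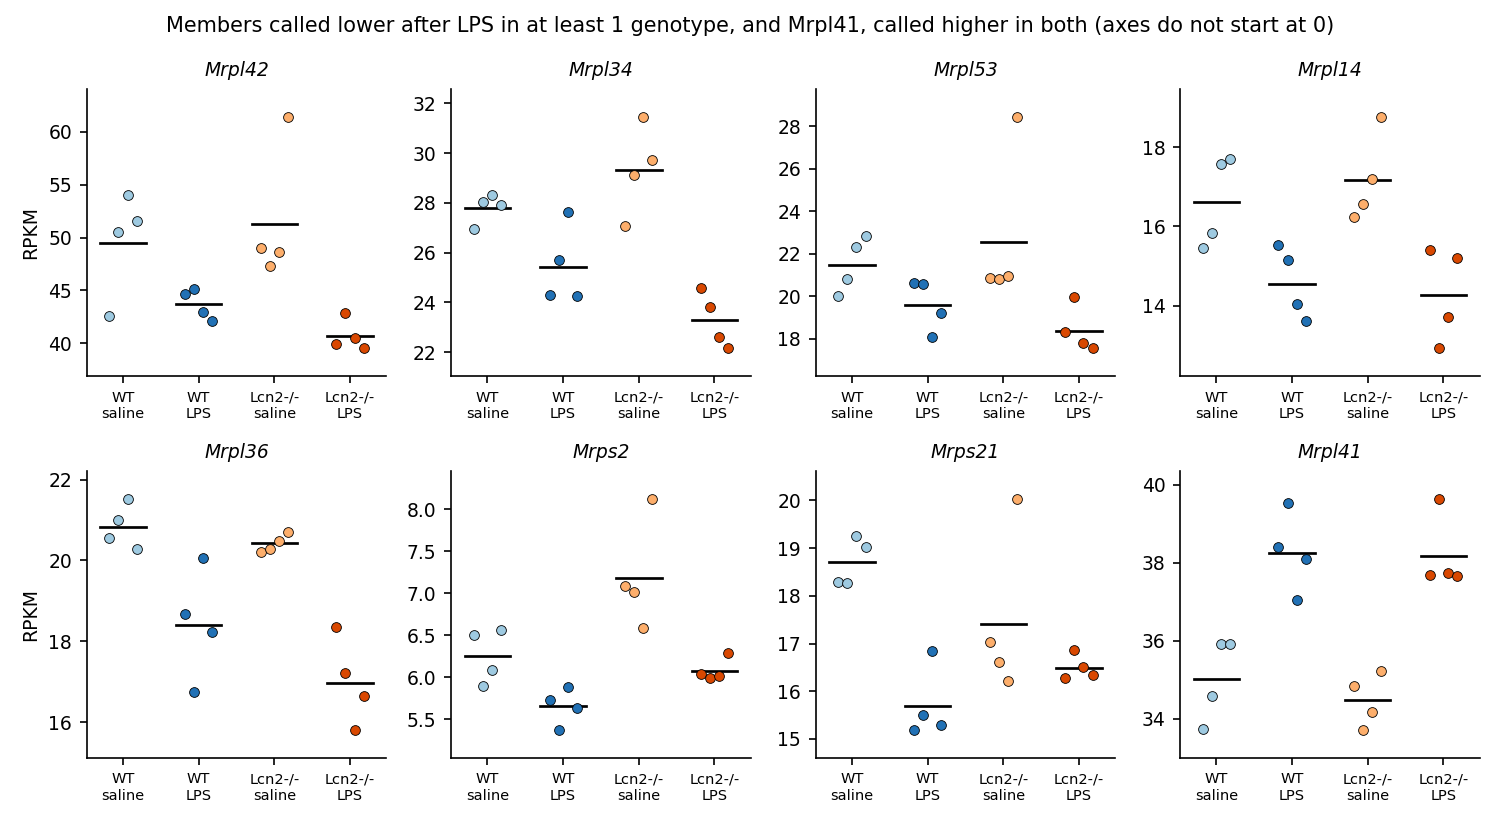
RPKM in each library (points) with the geometric mean of each group (lines) for 7 members called lower after LPS in at least 1 genotype, and for Mrpl41, called higher in both. In Mrpl42 and Mrpl53 the highest point is Lcn2-/- saline replicate 4, at 61.4 and 28.4 RPKM.

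After saline alone, no member differed between the genotype labels by limma. Of all genes tested, 8 (0.0461%) passed, 6 higher (0.0346%) and 2 lower (0.0115%), and 11 members had an unadjusted p under 0.05, 1 higher and 10 lower with the Lcn2-/- label (5.6% and 5.33% of all genes tested). The median difference of the members was -0.055 (log2), against -0.0048 over all genes, and 15 of 77 estimates lay above 0, against 48.1% of all genes. In wild-type saline replicate 3 only 13 of the 77 members lay below their group mean, and without that library the median difference was -0.026. Lcn2 lies on chromosome 2, where Mrps2 starts 3.91 Mb and Mrpl41 7.41 Mb from it. Mrps2, a small-subunit protein that bacteria share, held 6.498, 5.90, 6.09 and 6.57 RPKM in wild type and 7.08, 7.02, 6.59 and 8.13 with the Lcn2-/- label. These libraries did not overlap, but the difference of 0.20 ± 0.057 did not pass (adjusted p = 0.335, limma). Overlap was absent in 4 of the 77 members after saline, and the share over all genes tested is not given. For Mrpl41 the difference was -0.023 ± 0.030 (adjusted p = 0.780).

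After LPS, 9 members were higher with the Lcn2-/- label than in wild type (7.04% of all genes tested were, and 11.7% of the members) and none was lower (8.74% of all genes tested). At an unadjusted p under 0.05, 19 were higher and 5 lower (13.9% and 17.2% of all genes tested). In all 9 the libraries of the genotypes did not overlap, nor did they in 12 of the 68 members not called. The 9 passed on these same values, so the lack of overlap adds no separate support. How many of all genes tested lacked overlap here is not given, so nothing is read from the counts of 9 and 12. Mrps18a (chr17:46110986-46128910, plus strand), a large-subunit protein despite its symbol, held 9.66, 9.50, 8.99 and 9.16 RPKM in wild type and 10.5, 12.1, 11.8 and 11.3 with the Lcn2-/- label, a difference of 0.29 ± 0.073 (adjusted p = 0.0150, limma). Mrps30, also in the large subunit, held 13.7, 14.1, 13.02 and 14.6 RPKM and 17.2, 16.4, 16.02 and 16.1 (0.25 ± 0.061, adjusted p = 0.0141). Mrpl11, at the base of the stalk, held 12.03, 12.2, 12.1 and 12.7 RPKM and 13.4, 14.8, 15.5 and 14.1 (0.23 ± 0.065, adjusted p = 0.0242). The other members called were Mrpl15 (0.27), Mrpl30 (0.26), Mrps9 (0.23), Mrpl47, Mrpl37 and Mrpl12. Mrps9 was the only one of the 9 in the small subunit. Without Lcn2-/- saline replicate 4, a library outside this comparison that enters the shared estimate of the spread, 21 members were higher and 3 lower (13.7% and 16.1% of all genes tested), and within the 8 LPS libraries alone 20 were higher and 2 lower (12% and 13.3%). With another library left out, 6 to 10 members were higher (4.18% to 6.95% of all genes tested). Mrpl11, Mrpl37 and Mrpl12 passed in 21, 19 and 17 of the 26 alternative settings.

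The difference between the genotypes in their response to LPS was tested directly, as the LPS difference with the Lcn2-/- label minus that in wild type. It passed for 7 members, all with a more positive response under the Lcn2-/- label (3.9% of all genes tested; 9.09% of the members), and for none in the other direction (4.92% of all genes tested). At an unadjusted p under 0.05, 23 members were higher and 1 lower (13.2% and 15.2% of all genes tested). The estimate lay above 0 in 58 of 77 members (75.3%) against 49.5% of all genes tested, with a median of 0.11 against -0.0026. All 7 carry the prefix Mrpl.

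**Figure D3:**
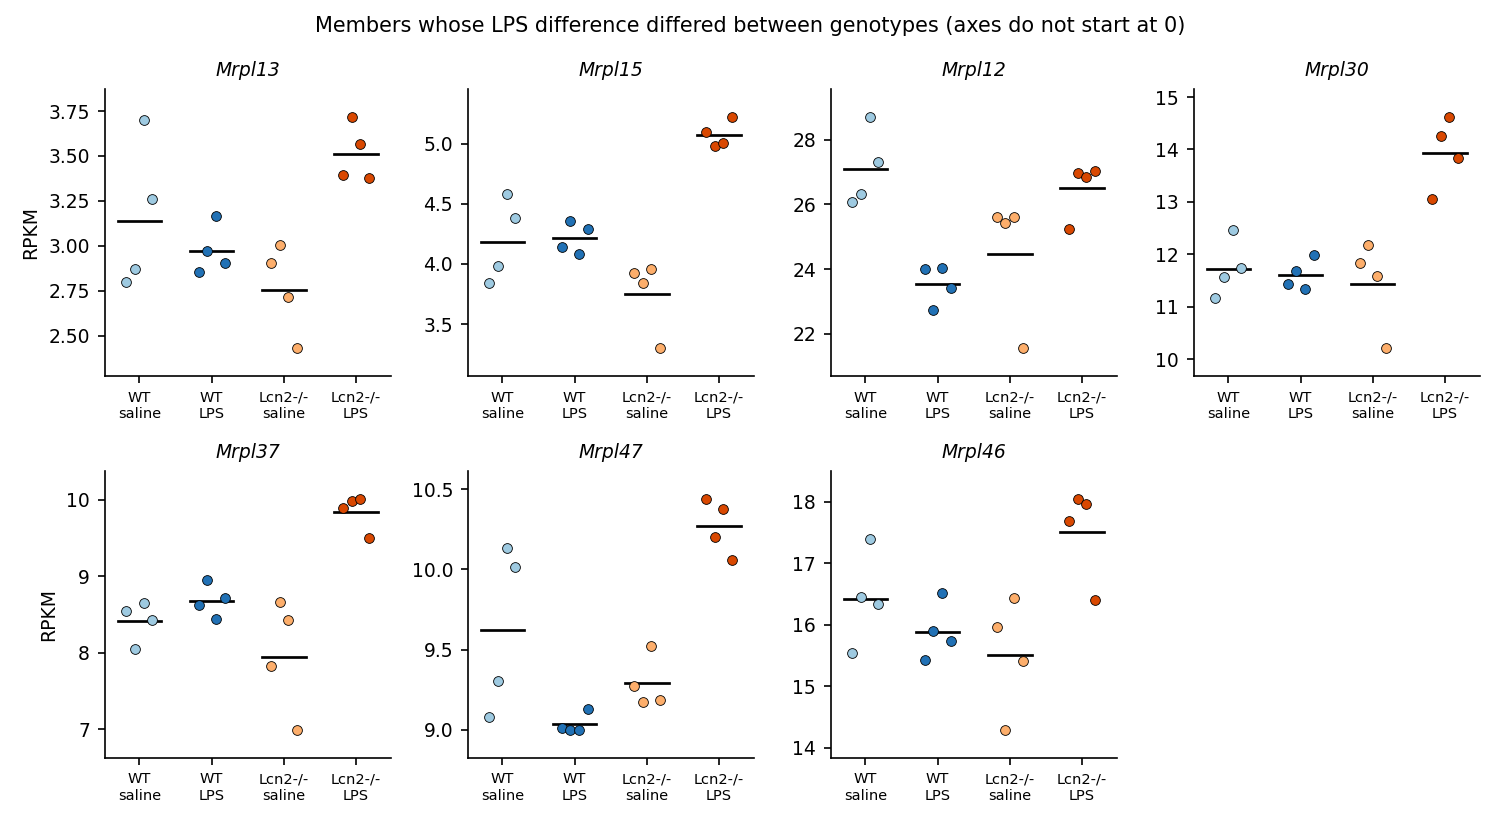
RPKM in each library (points) with the geometric mean of each group (lines) for the 7 members whose LPS difference differed between the genotypes. The Lcn2-/- LPS libraries are the highest group in each panel but that of Mrpl12, where wild-type saline is.

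Mrpl15 stood at 3.84, 3.98, 4.58 and 4.38 RPKM in wild-type saline libraries and 4.14, 4.35, 4.08 and 4.29 after LPS, so that these groups overlapped. With its rise under the Lcn2-/- label given above, the difference of the differences was 0.43 ± 0.091 (adjusted p = 0.0132, limma). Mrpl12 fell in wild type, as described, and held 25.6, 25.4, 25.6 and 21.6 RPKM after saline and 25.2, 26.98, 26.8 and 27.02 after LPS with the Lcn2-/- label, a change that did not pass (0.11 ± 0.051, adjusted p = 0.0753). Its difference of differences was 0.32 ± 0.072 (adjusted p = 0.0178). Mrpl47, near the peptide exit, held 9.08, 9.30, 10.1 and 10.02 RPKM in wild-type saline, 9.01, 9.002, 9.0 and 9.13 in wild-type LPS, 9.28, 9.17, 9.53 and 9.19 in Lcn2-/- saline and 10.4, 10.2, 10.4 and 10.1 in Lcn2-/- LPS libraries. Its estimate was 0.24 ± 0.051 (adjusted p = 0.0150). These 3 passed in all 26 alternative settings.

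Mrpl13 had the largest estimate, 0.43 ± 0.12 (adjusted p = 0.0396), with 2.80, 2.87, 3.70 and 3.26 RPKM in wild-type saline and 2.85, 2.97, 3.17 and 2.91 in wild-type LPS libraries. For Mrpl30 it was 0.30 ± 0.075 (adjusted p = 0.0244), for Mrpl37 0.26 ± 0.076 (adjusted p = 0.0443) and for Mrpl46 0.22 ± 0.067 (adjusted p = 0.0490). Mrpl46 and Mrpl47, as well as Mrps9 above, were named after their values were seen. Of the 26 settings, Mrpl30 passed in 22, Mrpl13 in 17, Mrpl37 in 13 and Mrpl46 in 10. The count of 7 moved with the libraries included, as did the share of all genes called. The count became 3 without wild-type saline 3 or Lcn2-/- LPS 3 (2.14% and 2.06% of all genes tested). It became 4 without wild-type saline 4, wild-type LPS 1, 2 or 4 or Lcn2-/- LPS 2 (2.29%, 2.01%, 2.55%, 3.35% and 2.39%). Without Lcn2-/- saline 4 it became 14 (6.03% of all genes tested). Those 14 hold all 7 and add Mrps15, Mrps18a, Mrps21, Mrps26, Mrps30, Mrps35 and Mrpl21, so that members of the small subunit then passed as well. Exons of Mrpl12, Mrpl13, Mrpl46 and Mrpl47 overlap exons of genes on the opposite strand, and the sources used here do not state the strand setting of the counting.

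By role, of the 28 large-subunit members with a bacterial counterpart 7 were lower and none higher in wild type, with a median of -0.063. For each role the shares of all genes tested were 11.4% higher and 13.9% lower in wild type, 20.7% and 27.7% with the Lcn2-/- label, and 3.9% and 4.92% for the difference in response. Under the Lcn2-/- label 10 of them rose and 4 fell (median 0.040), and 5 of them passed the test of the difference in response. Of the 22 large-subunit members particular to mitochondria, 1 rose in wild type, 7 rose and 3 fell with the Lcn2-/- label (medians -0.036 and 0.079), and 2 passed the test of the difference in response. Of the 16 small-subunit members with a bacterial counterpart, 1 fell in wild type, 4 rose and 2 fell with the Lcn2-/- label (medians -0.062 and 0.053). Of the 11 small-subunit members particular to mitochondria, none passed in wild type, at an unadjusted p either, and 3 rose and 1, Mrps36, fell with the Lcn2-/- label (medians 0.0013 and 0.043). No small-subunit member passed the test of the difference in response by limma, while 7 of the 16 that bacteria share and 2 of the 11 others had an unadjusted p under 0.05. The median of that difference was 0.15 for those that bacteria share and 0.099 for the others. No test between the roles was made, and nothing is read from the unequal counts.

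Members known for a particular function took different directions. Mrpl58, a peptidyl-tRNA hydrolase built into the large subunit that frees stalled chains, held 8.00, 8.07, 7.97 and 7.17 RPKM after saline and 8.83, 8.47, 9.12 and 8.82 after LPS with the Lcn2-/- label and rose by 0.18 ± 0.044 (adjusted p = 0.00361), against 0.0033 ± 0.044 in wild type. Mrpl45, which helps anchor the ribosome to the inner membrane, rose by 0.18 ± 0.058 with the Lcn2-/- label (adjusted p = 0.0176). Mrps36, counted above by its symbol but now known as a component of the oxoglutarate dehydrogenase complex, went from 8.91, 8.64, 8.82 and 10.5 RPKM to 8.02, 7.62, 8.05 and 7.78 (-0.22 ± 0.069, adjusted p = 0.0145). The 3 Mrps18 genes encode related proteins that take different places in the ribosome. Mrps18a was called only in the comparison of genotypes after LPS, and its LPS difference with the Lcn2-/- label was 0.18 ± 0.073 (adjusted p = 0.0536). For Mrps18b and Mrps18c that difference was 0.13 ± 0.072 and 0.034 ± 0.054, and neither gene passed in any comparison. In all, 37 of the 77 members passed in no comparison. The share of all genes tested that passed in none is not given, so this count is not read as a trait of the members. Of all genes tested, 48.3% passed in the comparison of LPS with saline under the Lcn2-/- label.

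Members called higher and members called lower had transcripts of different median length, a difference that was not tested. The 10 that fell under the Lcn2-/- label had a median longest annotated transcript of 903 nt, and 6 of them were under 1000 nt, while the 24 that rose had a median of 2514 nt and 1 of them was under 1000 nt. Over the 77 members, Pearson's r between log2 length and the LPS difference was 0.35 in wild type and 0.39 with the Lcn2-/- label (Spearman's rho 0.34 and 0.36). Over 17157 tested genes of known length r was 0.0093 and 0.0036. These correlations are across genes measured in the same libraries. The 10 that fell had a median of 51.2% GC and the 24 that rose of 48.5%. Mrpl42 and Mrpl35, with 3277 and 3721 nt, were the longest of those that fell, followed by Mrps2 (2504 nt) and Mrpl43 (1398 nt). With length and GC trends removed, all 24 members that rose with the Lcn2-/- label passed again and 7 of the 10 that fell did.

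**Figure D4:**
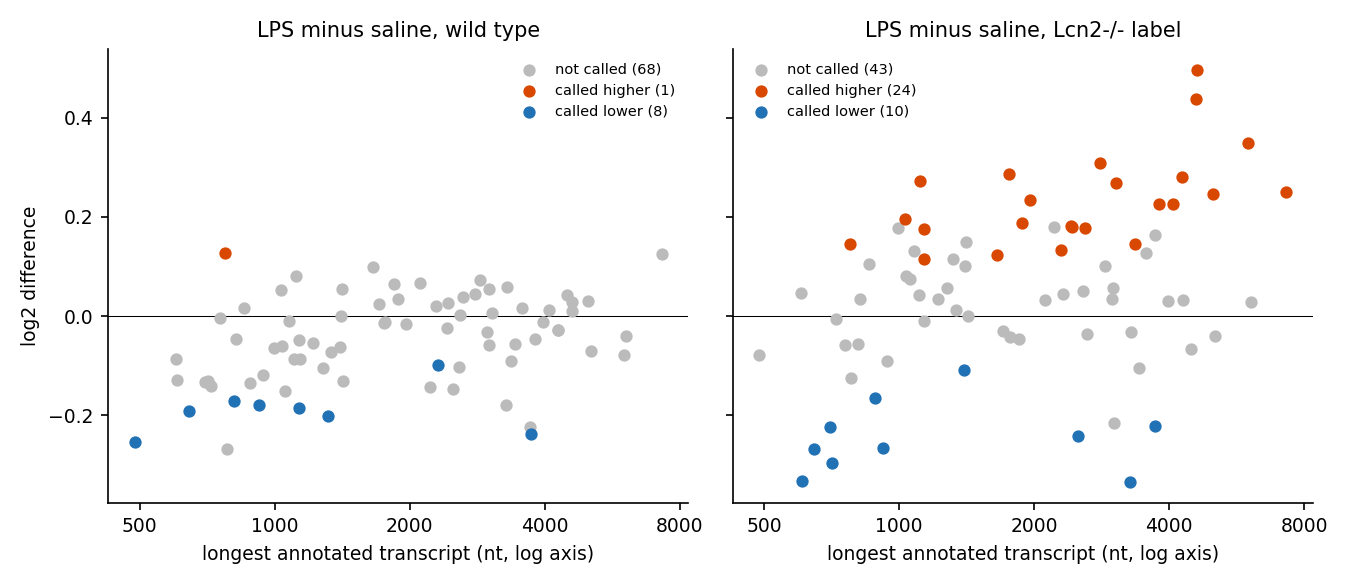
Log2 difference between LPS and saline of the 77 members against the length of the longest annotated transcript (nt, log axis), in wild type and with the Lcn2-/- label. With the Lcn2-/- label the points called lower (10) lie mostly at the short end, with a median of 903 nt, and those called higher (24) have a median of 2514 nt.

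Genes that work with the mitochondrial ribosome were described from lists, whose counts stand beside the shares of all genes tested: 11.4% higher and 13.9% lower in wild type, and 20.7% and 27.7% with the Lcn2-/- label. Of 5 further proteins of the ribosome with other symbols, none passed in wild type and 2 rose with the Lcn2-/- label: Dap3, a GTP-binding protein of the small subunit, by 0.32 ± 0.095, and Aurkaip1, by 0.11 ± 0.041. Dap3 held 10.01, 9.83, 10.7 and 6.96 RPKM in Lcn2-/- saline and 11.3, 11.7, 11.9 and 11.4 in Lcn2-/- LPS libraries, with saline replicate 4 the lowest. Aurkaip1 held 25.4, 26.1, 25.8 and 25.4 RPKM in wild-type saline, 23.4, 23.5, 23.7 and 24.1 in wild-type LPS, 24.7, 24.1, 24.3 and 21.4 in Lcn2-/- saline and 24.5, 25.5, 25.2 and 26.9 in Lcn2-/- LPS libraries. The difference in its response between genotypes passed (0.23 ± 0.059, adjusted p = 0.0270).

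Of 28 tested assembly and rRNA modification factors, 2 rose and 2 fell in wild type, and 9 rose and 3 fell with the Lcn2-/- label. Mettl17, which acts in assembly of the small subunit, held 3.10, 3.11, 2.92 and 2.89 RPKM in wild-type saline and 3.14, 3.33, 3.24 and 3.14 in wild-type LPS libraries. Libraries with the Lcn2-/- label held 2.99, 3.19, 2.99 and 3.14 RPKM after saline and 3.92, 3.93, 3.98 and 3.89 after LPS. It rose by 0.35 ± 0.044 there, and the response differed between genotypes by 0.26 ± 0.062 (adjusted p = 0.0216). Ddx28, a helicase of large-subunit assembly, rose by 0.31 ± 0.074 with the Lcn2-/- label. Mterf4, which binds ribosomal RNA with the methyltransferase Nsun4, fell in both genotypes (-0.62 ± 0.044 in wild type and -0.51 ± 0.044 with the Lcn2-/- label), as did the methyltransferase Mrm1 (-0.29 ± 0.060 and -0.36 ± 0.060), while the anti-association factor Malsu1 rose in both (0.23 ± 0.074 and 0.23 ± 0.074). The pseudouridine synthase Rpusd4 fell by 0.39 with the Lcn2-/- label. Trub2, another pseudouridine synthase 2.60 Mb from Lcn2, was the only gene of these lists that differed between the genotypes after saline (0.72 ± 0.048), with 2.57 to 2.87 RPKM in wild-type saline and 4.34 to 4.65 RPKM in Lcn2-/- saline libraries. After LPS its difference was 0.72 ± 0.048.

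Of 15 translation factors, 1 fell in wild type, the recycling factor Gfm2 (-0.20 ± 0.052), and 4 rose and 2 fell with the Lcn2-/- label. Lrpprc and Slirp, partners that stabilise mitochondrial mRNAs, rose by 0.37 ± 0.081 and 0.25 ± 0.048. Taco1, a translational activator, and Mtrf1l, a release factor, both fell by 0.34. Of 20 synthetases and related enzymes that charge mitochondrial tRNAs, Qrsl1 fell in wild type (-0.26 ± 0.076), and 7 rose and 2 fell with the Lcn2-/- label, from Sars2 (0.27 ± 0.091) and Fars2 (0.24 ± 0.062) to Gatc (-0.25 ± 0.065) and Wars2 (-0.45 ± 0.15). Neither list had a gene past the test of the difference in response by limma, while after LPS 1 translation factor was higher and 1 lower, and 2 synthetases were higher, with the Lcn2-/- label than in wild type. In Lcn2-/- saline replicate 4, Lars2 stood at 318 RPKM against 116 to 148 RPKM in the other 15 libraries, a gene named after its values were seen.

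Of 14 regulators of mitochondrial transcription and biogenesis, 1 rose in wild type, and 4 rose and 2 fell with the Lcn2-/- label. Myc held 0.857, 0.856, 0.966 and 0.847 RPKM in wild-type saline and 1.70, 1.41, 1.496 and 1.59 in wild-type LPS libraries, a rise of 0.81 ± 0.14 (adjusted p = 0.000414). It went under the Lcn2-/- label from 0.787, 0.804, 0.837 and 1.36 RPKM to 2.86, 2.48, 2.59 and 2.40, a rise of 1.48 ± 0.14, and the responses differed by 0.67 ± 0.20 (adjusted p = 0.0478). Yy1 held 6.46, 6.75, 6.02 and 6.21 RPKM in wild-type saline and 5.99, 6.25, 6.58 and 6.12 in wild-type LPS libraries, which overlapped. With the Lcn2-/- label it fell from 6.67, 6.20, 6.68 and 6.23 RPKM to 5.24, 5.31, 5.26 and 4.89 (-0.32 ± 0.047), and the responses differed by -0.29 ± 0.067 (adjusted p = 0.0184). Of the chains of GABP, Gabpb1 rose (0.31 ± 0.061) and Gabpa fell (-0.16 ± 0.053) with the Lcn2-/- label.

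Set beside the motifs shown above, the calls of members were as follows. The YY1 motif stood in 3 of the 10 members that fell with the Lcn2-/- label (Mrpl35, Mrpl36 and Mrpl42), in 1 of the 19 with a window that rose (Mrpl37) and in 4 of the 39 that did not pass. The median LPS difference of the 8 members with the motif was -0.15 in wild type and 0.014 with the Lcn2-/- label, against -0.036 and 0.039 in the 60 without it. The NRF1 motif stood in 3 of the 19 that rose, none of the 10 that fell and 4 of the 39 others, the ETS motif in 1, 1 and 9, and the E-box in 2, 1 and 2. With the Lcn2-/- label the median was 0.12 with the NRF1 motif against 0.035 without it, 0.030 against 0.057 for ETS and 0.034 against 0.043 for the E-box. In wild type these medians were 0.024 against -0.054, -0.027 against -0.057, and -0.046 against -0.046. These counts are small, and whether any factor acts on these genes was not tested.

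Partners that share a start region did not always move with the member. Of the 18 members with such a partner, 6 passed after LPS with the Lcn2-/- label. In 5 of these the partner passed too, 3 times in the same direction and 2 times in the other. Of all genes tested, 48.3% passed in this comparison. The partners Zfp189, Ncapd2, Apba3, Ppp1r10 and Zfp661 passed beside members that did not. Whether member and partner are linked was not tested. Mrps12 held 23.2, 24.8, 26.5 and 24.3 RPKM after saline and 22.2, 21.4, 21.6 and 22.97 after LPS, a difference of -0.16 ± 0.053 (adjusted p = 0.0188). Sars2, which starts 172 bp away, held 4.33, 4.03, 4.39 and 3.15 RPKM and then 4.83, 4.51, 4.62 and 5.05, and rose by 0.27 ± 0.091 (adjusted p = 0.0227). Saline replicate 4 was the lowest library of Sars2, and the other saline libraries of that label also lay below every LPS library. The call of Mrps12 was lost with GC and length trends removed. Mrpl2 rose by 0.20 while its partner Klc4 fell by 0.20. Mitd1, the partner of Mrpl30, was higher after LPS in both genotypes, by 0.27 ± 0.081 (SE) in wild type and 0.30 with the Lcn2-/- label (adjusted p = 0.0203 and 0.00742, limma), while Mrpl30 passed with the Lcn2-/- label and stood at -0.014 ± 0.053 in wild type. Mrpl41 and Pnpla7, 935 bp apart, both rose in both genotypes, with Pnpla7 at 0.61 in each.

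Other large sets of related genes were taken as a yardstick. Over all genes tested, 11.4% were higher and 13.9% lower in wild type, and 20.7% and 27.7% with the Lcn2-/- label. For the difference in response these shares were 3.9% and 4.92%, and between the genotypes after LPS 7.04% and 8.74%. Of 77 protein genes of the cytosolic ribosome, 1 fell and none rose in wild type, 34 rose and 1 fell with the Lcn2-/- label, and 15 passed the test of the difference in response, all upward. Of 83 nuclear genes for respiratory chain subunits, 13 fell and none rose in wild type. With the Lcn2-/- label 16 of them rose and 12 fell, and 9 passed the test of the difference in response, all upward. Between the genotypes after LPS, 17 and 10 of these sets were higher and none lower. Their median LPS differences with the Lcn2-/- label were 0.12 for the cytosolic ribosome and -0.0075 for the respiratory chain, beside 0.050 for the members. An upward difference in response was thus also called in both of the other sets. It was called for 19.5% of the cytosolic and 10.8% of the respiratory chain genes. The respiratory chain shares lower in wild type (15.7%) and higher with the Lcn2-/- label (19.3%) lay near those of all genes tested.

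**Figure D5:**
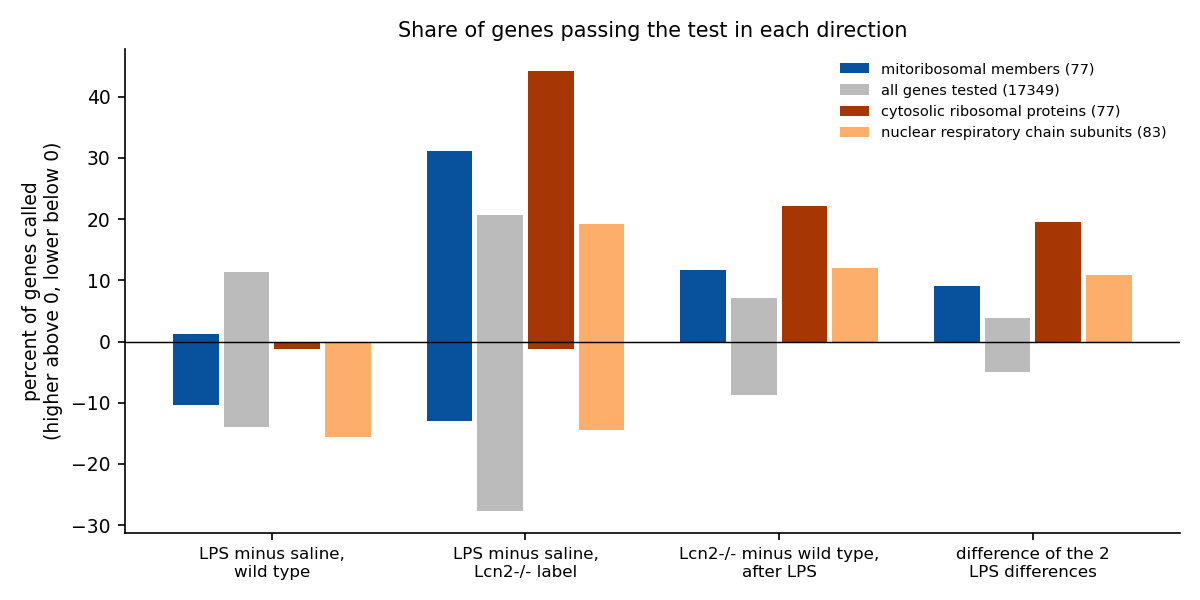
Percent of genes that passed the test in each direction (higher above 0, lower below 0) among the 77 members, all 17349 genes tested, 77 cytosolic ribosomal protein genes and 83 nuclear respiratory chain genes, in 4 comparisons. Among the members 31.2% were called higher after LPS with the Lcn2-/- label, against 20.7% of all genes and 44.2% of the cytosolic set.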

How the data were processed

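Total RNA of 16 mouse hemi-brains was sequenced with standard Illumina protocols, per the labels' protocols. The authors deposited 1 table of log2 RPKM values after conditional quantile normalization, with 33289 Ensembl gene identifiers and 16 libraries, and 0 per-sample columns were left unused. The build was mm10, per the submitters' processing notes. The sources used here name no aligner, counting program, strand setting or annotation, and the depth of each library is unknown. GENCODE vM21 gave symbols, biotypes, positions, transcript length and GC content for 32695 identifiers.

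Genes with at least 0.5 RPKM (-1 on the log2 scale) in at least 3 libraries were tested. A model of group means over the 16 libraries was fitted with limma 3.58.1 (R 4.3.3; empirical Bayes with a trend), and p-values were adjusted by Benjamini-Hochberg over all 17349 genes, with calls at an adjusted p under 0.05. Fold changes are differences of the deposited log2 values, with no pseudocount. Tables and plots were made with Python 3.11.15, pandas 2.3.3, numpy 2.4.6 and matplotlib 3.10.9. The fit was tested on simulated data. Promoter windows came from RefSeq (GRCm38.p6).

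The genes named were, in each comparison, the 5 called members with the largest increase and the 5 with the largest decrease, the 3 highest and 3 lowest members, members within 10 Mb of Lcn2, members with a particular role, and up to 2 genes in each direction per pathway list. The rule for the members uses symbols only, but it and the lists were chosen with earlier results of these data known. Each result was recomputed under 26 alternatives, 16 of which left out 1 library each.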

Additional observations from a re-analysis of the deposited data

Results flagged for a closer look

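In 13 of 112 groups of 4 libraries examined, 1 library lay far from the other three, where chance alone marks about 1 in 20. In 8 of these the library was Lcn2-/- saline replicate 4. Its log2 RPKM was 3.36 for Mrpl11, 4.43 for Mrpl12, 1.72 for Mrpl15, 5.94 for Mrpl42, 4.83 for Mrpl53, 2.84 for Mrpl58 and 3.39 for Mrps36, and the mean over all members was 3.53 against 3.55 to 3.56 in the other libraries of the group. The remaining libraries far from their group were Lcn2-/- LPS replicate 1 for Mrpl12 (4.66), replicate 2 for Mrpl41 (5.31) and replicate 4 for Mrps2 (2.65), wild-type saline replicate 3 for Mrps12 (4.78) and wild-type LPS replicate 1 for Mrps18c (4.52).

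The response to LPS differed between the genotype labels, by the test of the difference itself (limma, adjusted p under 0.05), in 7 members and 4 genes of the pathway lists. The log2 difference of responses was 0.43 for Mrpl13 and for Mrpl15, 0.32 for Mrpl12, 0.30 for Mrpl30, 0.26 for Mrpl37, 0.24 for Mrpl47 and 0.22 for Mrpl46. It was 0.67 for Myc, 0.26 for Mettl17, 0.23 for Aurkaip1 and -0.29 for Yy1.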

How the results depend on the processing

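No paired analysis was possible because the labels number no replicates, and the numbers used here follow accession order. No result reversed under any of the 26 alternatives. The single-gene results kept their call in 6184 recomputations, gained it in 128 and lost it in 183. Where counts moved, the cause was not tested.

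Shares of all genes tested in the same setting follow each changed count in parentheses. Ranges of counts and of shares run over the libraries left out in turn. Members called higher after LPS in wild type (1) became 2 with no filter (6.94%), 2 with only the groups compared (13.7%), 2 with library weights (15.8%) and 5 with GC and length trends removed (14.2%). With 1 library left out they were 1 to 2 (9.67% to 14.9%). Those called lower (8) became 13 with only the groups compared (18.3%), 17 with library weights (21.1%), 5 with no trend (13.8%) and 3 with GC and length trends removed (11.6%). With 1 library left out they were 4 to 15 (11.1% to 19.8%). With the Lcn2-/- label, those called higher (24) became 14 with only the groups compared (16.2%) and 20 to 26 with 1 library left out (18% to 20.7%). Those called lower (10) became 8 to 10 with 1 library left out (24.2% to 28.1%).

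Between genotypes after LPS, those called higher (9) became 20 with only the groups compared (12%), 19 with library weights (13.8%) and 6 to 21 with 1 library left out (4.18% to 13.7%). Those called lower (0) became 2 with only the groups compared (13.3%), 2 with library weights (16.7%) and 1 with GC and length trends removed (7.85%). With 1 library left out they were 0 to 3 (4.65% to 16.1%). For the difference in response, those called higher (7) became 4 with no filter (1.26%), 18 with library weights (7.97%) and 3 to 14 with 1 library left out (2.01% to 6.03%). Those called lower (0) became 0 to 1 with 1 library left out (2.18% to 7.04%). The setting with both GC and length trends removed and Lcn2-/- saline replicate 4 left out was chosen after seeing the data, and gave 6 higher in wild type (18.5%), 20 higher (15.3%) and 4 lower (14.1%) between genotypes after LPS, and 13 higher (6.53%) for the difference in response. No member passed between genotypes after saline in any setting.

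The members' median difference ranged from -0.049 to -1.4e-05 after LPS in wild type and from 0.049 to 0.088 with the Lcn2-/- label, and from 0.079 to 0.13 for the difference in response. With no counts, no limit from depth can be given.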
